A study of Mus musculus with 12 samples.

Results

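The endoplasmic reticulum (ER) chaperones and the genes of the ER stress response were followed in mouse liver as a list of 35 genes, taken by gene symbol from a table of read counts for 55291 genes. All 35 were in the table, and all 35 were among the 18305 genes that passed the filter on low counts. The list holds 9 lumenal chaperones and co-chaperones (Hspa5, Hyou1, Hsp90b1, Dnajb9, Dnajb11, Dnajc3, Sdf2l1, Creld2 and Manf) and 4 genes of the calnexin and calreticulin cycle (Calr, Canx, Pdia3 and Uggt1). It further holds 3 other protein disulfide isomerases (Pdia4, Pdia6 and P4hb), 5 genes of ER-associated degradation (Herpud1, Syvn1, Sel1l, Edem1 and Derl3), and the stress sensors Atf6, Ern1 and Eif2ak3 with Xbp1. The last members are 7 genes of the PERK and ATF4 branch (Atf4, Ddit3, Trib3, Asns, Chac1, Ppp1r15a and Sesn2) and 3 genes of the translocon (Sec61a1, Sec61b and Ssr1). Livers came from 4 groups of male C57BL/6 mice, an inbred strain, with 3 libraries each. HFD+RE and HFD+AE mice had a high-fat diet and exercise, HFD mice had the high-fat diet with no exercise named in the labels, and NC mice had a normal diet; the series presents the diet as a model of fatty liver disease. Mice entered at 6 weeks of age, and exercise began after 8 weeks of high-fat feeding and lasted at least 12 weeks. The labels give AE and RE as abbreviations only. Whether each library stands for its own mouse is not given in the labels, so p-values measure only how far the libraries of a group spread, which may be technical.

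Hepatocytes secrete much of the protein of blood plasma, and that protein is folded in the ER. Hspa5 (BiP) is the ER member of the Hsp70 family; it binds unfolded chains and also holds the stress sensors inactive. When unfolded protein builds up, the sensor Atf6 is cut to an active transcription factor, Ern1 (IRE1) splices the Xbp1 messenger RNA to a form that encodes an active factor, and Eif2ak3 (PERK) phosphorylates eIF2 alpha, which slows translation and favours that of Atf4. Atf6 and Xbp1 act mainly on chaperone and degradation genes, and Atf4 on Ddit3 (CHOP), Trib3, Asns and other genes of amino acid supply and stress. Counts per gene show none of the cleavage, splicing or phosphorylation steps, and they do not tell spliced from unspliced Xbp1.

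The promoters of ER chaperones are known for the ER stress response element (ERSE), which is bound by NF-Y together with Atf6 or Xbp1, and its letters were looked for in RefSeq promoter windows of 250 bases before to 50 bases after each start (GRCm38.p6). A window was given for 31 of the 35 members and none for Hyou1, Manf, Atf6 or Sec61a1. ERSE was searched on both strands as CCAAT, any 9 bases and CCACG, and ERSE-II, another arrangement, as ATTGG, any 1 base and CCACG; matches to them do not overlap each other in any member. ERSE was found in 9 of 31 member windows (29.0%), against 39 of all 32851 windows (0.119%), and ERSE-II in 2 of 31 (6.45%), against 12 of all windows (0.0365%). The core of the UPR element, TGACGTGG, was in 0 of 31 member windows and 0.676% of all windows, and the C/EBP-ATF composite letters TGATGNAAT were in 0 of 31 and 0.965% of all. These are matches of letters and not binding sites, and a window without them may hold other forms. The stretches that hold the letters are shown because these letters are more frequent in the members' windows than in all windows; each is printed 5′ to 3′ on the gene's strand with the matched letters in capitals, which for ERSE read CCAAT to CCACG, or CGTGG to ATTGG where it lies on the reverse strand, and for ERSE-II, in Herpud1, ATTGG to CCACG. They are as follows.
Hspa5 (chr2:34772010-34772058, plus strand): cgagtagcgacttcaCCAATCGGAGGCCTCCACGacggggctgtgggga
Hsp90b1 (chr10:86705623-86705671, minus strand): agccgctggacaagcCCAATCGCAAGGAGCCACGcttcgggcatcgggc
Hsp90b1 (chr10:86705518-86705566, minus strand): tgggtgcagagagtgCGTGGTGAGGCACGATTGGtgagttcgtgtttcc
Dnajc3 (chr14:118937812-118937860, plus strand): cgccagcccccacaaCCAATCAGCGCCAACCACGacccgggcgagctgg
Creld2 (chr15:88819505-88819553, plus strand): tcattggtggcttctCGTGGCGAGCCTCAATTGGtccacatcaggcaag
Calr (chr8:84847060-84847108, minus strand): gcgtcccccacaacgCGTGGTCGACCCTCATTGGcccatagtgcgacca
Canx (chr11:50325785-50325833, minus strand): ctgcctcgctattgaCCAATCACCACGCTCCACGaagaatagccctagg
Pdia6 (chr12:17266476-17266524, plus strand): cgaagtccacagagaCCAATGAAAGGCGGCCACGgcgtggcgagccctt
Syvn1 (chr19:6046517-6046565, plus strand): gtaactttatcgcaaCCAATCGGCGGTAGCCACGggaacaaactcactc
Derl3 (chr10:75893227-75893275, plus strand): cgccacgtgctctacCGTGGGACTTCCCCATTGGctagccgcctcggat
Herpud1 (chr8:94386362-94386402, plus strand): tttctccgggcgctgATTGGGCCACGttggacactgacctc

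Hsp90b1 is the member with 2 matches, and Dnajb11 has its ERSE-II letters after the start. The first base of the match lay between -212 and -44 bases from the RefSeq start in the 10 members with a match before it. Hspa5 is given with the whole 250 bases before its RefSeq start (chr2:34771840-34772089, plus strand), since it is the gene in which the element is best known; further CCAAT letters stand upstream of the capitals, without the full ERSE pattern, and the annotation in the deposited table starts the gene within these bases.
Hspa5, upstream: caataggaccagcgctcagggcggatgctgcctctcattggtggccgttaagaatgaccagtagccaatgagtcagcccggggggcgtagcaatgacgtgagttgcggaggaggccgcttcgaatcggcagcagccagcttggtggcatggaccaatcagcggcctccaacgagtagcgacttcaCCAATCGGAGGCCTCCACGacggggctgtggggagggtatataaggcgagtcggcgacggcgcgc

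**Figure D1:**
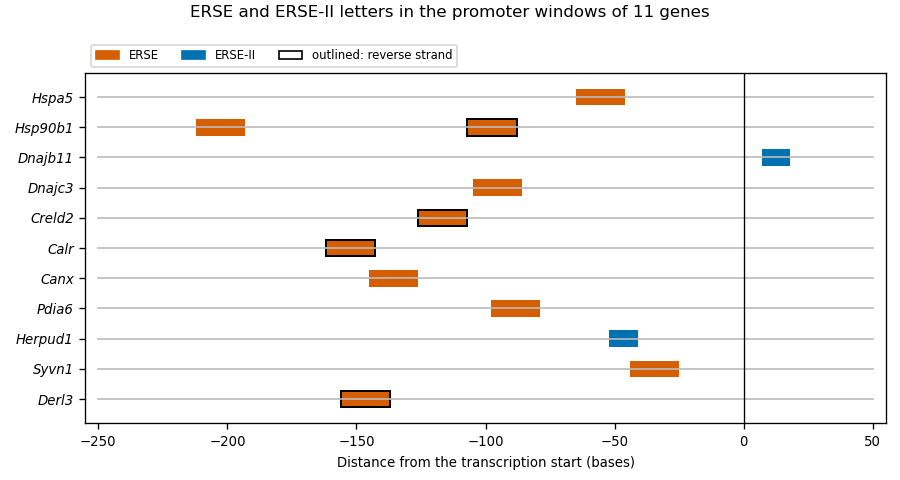
Positions of ERSE (orange) and ERSE-II (blue) letters in the RefSeq promoter windows of the 11 members that hold one, on an axis of bases from the transcription start, with outlined boxes for the reverse strand. Hsp90b1 has 2 matches and Dnajb11 has its match after the start, while all others lie between -212 and 0.

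Each library held 44373214 to 77665729 counts in genes, and Alb was the gene with the most counts in all 12. On the scale of CPM, counts scaled by TMM to a common library size, 3 counts, the upper limit that a count of 0 allows, correspond to 0.0386 to 0.0676 CPM before that scaling; Asns, whose lowest library was at 0.145 CPM, was the member nearest to it. The 2 libraries HFD+AE 3 and HFD+RE 3 stood apart from the others of their groups on the first principal component of all genes, which held 40.6% of the variance. HFD+RE 3 was at 36.6, near HFD+AE 1 and 2 at 40.4 and 36.9. HFD+RE 4 and 5 were at -50.4 and -52.6, and HFD+AE 3 at -14.0. A scaled chi-square of the counts, lower for libraries more alike, set HFD+RE 3 against HFD+AE 1 and 2 at 84.0 and 90.3. Against HFD+RE 4 and 5 it was 389 and 377. That of HFD+AE 3 was 117 against HFD+RE 4 and 297 against HFD+RE 5. It was 327 and 258 against HFD+AE 1 and 2. Whether labels were exchanged was not tested, and groups are used as labelled. Mitochondrial ribosomal RNA took 0.685% to 1.71% of counts in HFD+RE libraries, 0.771% to 0.867% in HFD+AE, 1.76% to 3.26% in HFD and 0.708% to 0.924% in NC. The rank correlation, across genes, of a gene's level in a library relative to its mean over all libraries with its exon length was 0.36, -0.44 and -0.36 in HFD+RE 3, 4 and 5, 0.41, 0.38 and -0.18 in HFD+AE 1, 2 and 3, -0.31 to -0.20 in HFD and 0.17 to 0.29 in NC. Summed levels of 8 hepatocyte markers ran from 112051 to 141034 CPM in HFD+RE, 126532 to 159158 CPM in HFD+AE, 81549 to 109564 CPM in HFD and 130602 to 146640 CPM in NC. These values separate HFD from NC without overlap, as do the levels of some but not all of the chaperones below. HFD+AE overlapped with NC in mitochondrial ribosomal RNA and in the hepatocyte markers. The part of these values in the results was not tested. In bulk tissue, fewer cells of a type and less RNA per cell cannot be told apart.

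On the scale of CPM per kilobase of exon, which allows levels of different genes to be compared, the list spanned from P4hb at 523 ± 104 to Asns at 1.08 ± 0.752 CPM per kilobase in NC livers (SD, n = 3). Hspa5 at 441 ± 224, Calr at 385 ± 126, Herpud1 at 237 ± 7.36 and Hsp90b1 at 235 ± 97.1 followed P4hb. P4hb, Hspa5 and Calr lay within their SDs of each other, as did Herpud1 and Hsp90b1. The sensors were far lower, with Ern1 at 13.9 ± 2.35, Atf6 at 13.7 ± 1.94 and Eif2ak3 at 2.80 ± 0.419 CPM per kilobase in NC livers. Libraries of a group were not alike in the chaperones. NC 4 was the highest NC library in 25 of 35 members and 8 of the 9 lumenal chaperones, against 31.5% of all genes tested. HFD 2 was the highest HFD library in 28 of 35 members (40.7% of all genes) and HFD 3 the lowest in 31 of 35 (36.2% of all genes).

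High-fat feeding without exercise was compared with the normal diet first. In HFD livers, 15 of the 35 genes fell and 1, Ddit3, rose, against NC livers, and 19 did not pass (edgeR quasi-likelihood test, Benjamini-Hochberg adjusted p below 0.05 over all 18305 genes, here and below). This comparison called 15.6% of all genes tested, 8.38% as higher and 7.19% as lower. By role, 4 of 9 lumenal chaperones fell, 3 of 4 genes of the calnexin and calreticulin cycle, 2 of 3 disulfide isomerases, 1 of 5 degradation genes, 3 of the 4 sensor genes with Xbp1, and 1 of 3 translocon genes. In the PERK and ATF4 branch 1 of 7 rose and 1 fell. The median log2 change of the 35 genes was -0.76, against 0.01 over all genes tested, and 29 of the 35 were below 0. HFD and NC libraries did not overlap in 17 members lower in HFD and 2 higher, where 22.1% and 23.9% of all genes had such groups. How many members passed depended on single libraries, as did the number of all genes called. Without HFD 1 or without HFD 3, 2 members passed in each case (Uggt1 and Ern1), with 2.6% and 2.21% of all genes called in those fits. Without NC 4, 3 members passed (Uggt1, Hyou1 and Ern1), with 3.06% of all genes, and without NC 2, 8 members passed, with 4.96%. Without NC 5, 15 passed, with 11% of all genes, and without HFD 2, 19 passed, with 18.8%. Every member called in HFD kept its direction in each of the alternatives tried.

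HFD+RE and HFD+AE livers share the NC libraries as their baseline with HFD livers, so the 3 comparisons with NC are given side by side and not as repeats of each other. In HFD+RE livers 14 members fell and 0 rose against NC, where 3.96% of all genes were called, 2.67% as higher and 1.28% as lower, and the median log2 change of the list was -0.99, against 0.02 over all genes. In HFD+AE livers 7 members fell and 0 rose against NC, where 1.38% of all genes were called, 0.901% as higher and 0.481% as lower, and the median of the list was -0.63, against -0.01 over all genes. The HFD+RE and NC libraries did not overlap in 24 members, all lower in HFD+RE (12.4% of all genes tested were lower and 13.7% higher without overlap). The HFD+AE and NC libraries did not overlap in 21, all lower in HFD+AE (9.74% of all genes, with 12.1% higher). By role, 8 of the 9 lumenal chaperones fell in HFD+RE, with 2 of 4 genes of the calnexin and calreticulin cycle, 2 of 3 isomerases, 1 of 5 degradation genes, 1 of the 4 sensor genes with Xbp1, and 0 of 7 genes of the PERK and ATF4 branch. All 7 that fell in HFD+AE were lumenal chaperones. These calls rested on few libraries too. In HFD+RE, 21 members passed without HFD+RE 3 (21.0% of all genes called in that fit), 2 without HFD+RE 4 (0.594%) and 3 without HFD+RE 5 (0.967%). Leaving out NC 4 gave 3 (0.753% of all genes), NC 2 gave 8 (1.45%) and NC 5 gave 13 (2.43%). In HFD+AE, 0 members passed without any 1 of its 3 libraries (0.232% to 0.684% of all genes) or without NC 4 (0.306%), and leaving out NC 2 gave 4 (0.58%) and NC 5 gave 5 (1.2%). Without HFD+AE 3 and HFD+RE 3 together, 25 members passed in HFD+RE against NC, 23 of them lower, with 31.7% of all genes called, while 1 passed in HFD+AE against NC, Xbp1, with 1.66% of all genes.

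**Figure D2:**
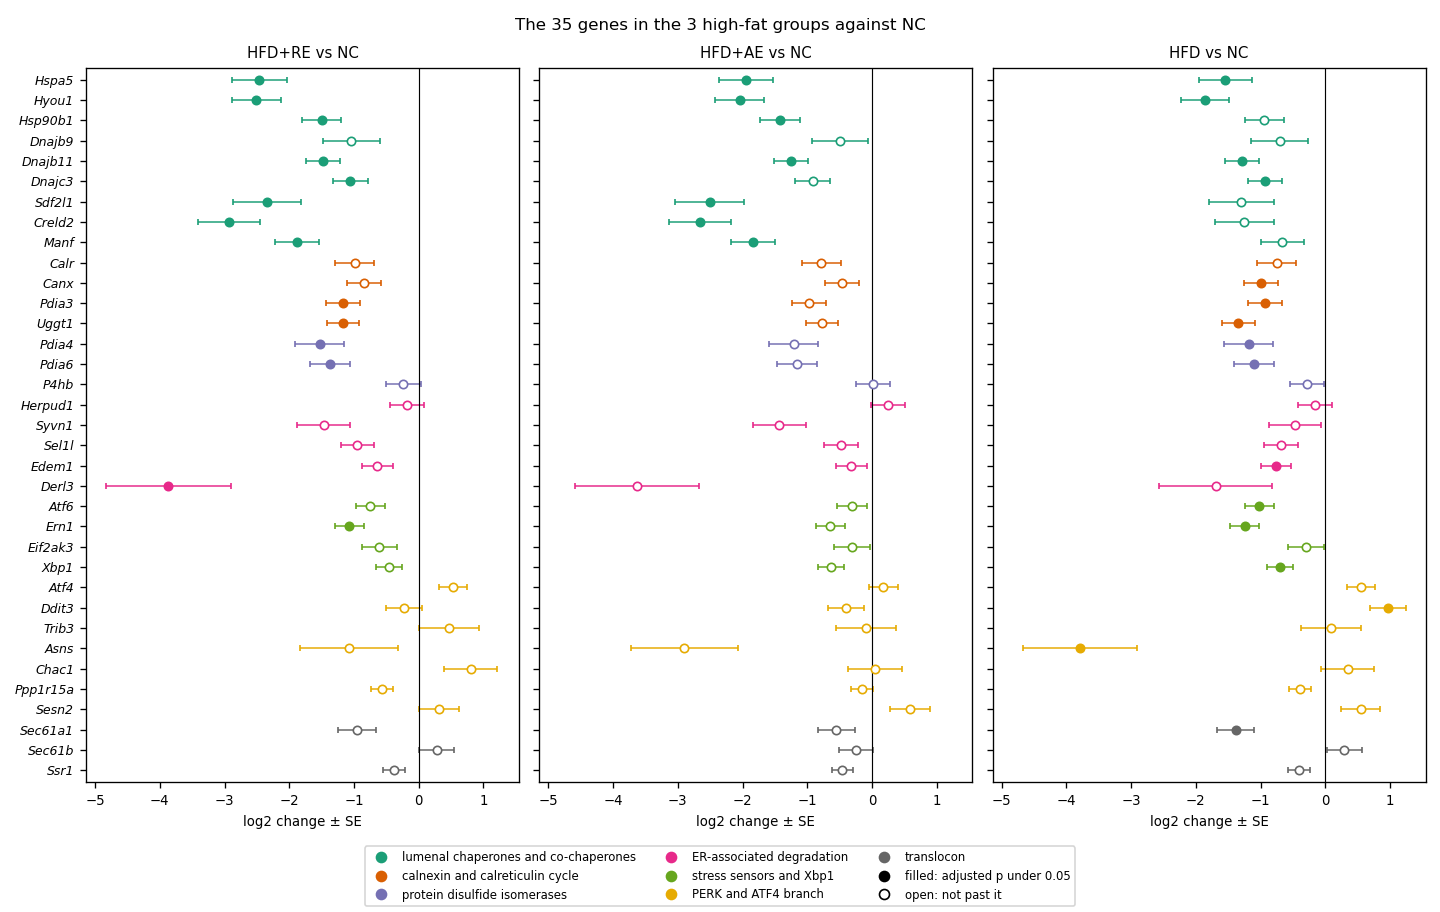
Log2 change with its standard error for each of the 35 genes in HFD+RE (left), HFD+AE (middle) and HFD livers (right) against NC livers, 3 libraries a group, with filled points for adjusted p below 0.05 and colours for roles. Lumenal chaperones lie to the left of 0 in all 3 panels, while Ddit3 at 0.97 is the filled point to the right of 0 in HFD livers.

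Hspa5, the central ER chaperone, had 455, 285 and 275 CPM in HFD+RE livers, 574, 459.6 and 419 CPM in HFD+AE livers, 524, 1048 and 349 CPM in HFD livers, and 1108, 2929 and 1554 CPM in NC livers. All 9 libraries on the high-fat diet lay below the lowest NC library, and HFD 2 came closest to it. The log2 changes against NC were -2.46 ± 0.43 in HFD+RE (adjusted p = 0.0115), -1.94 ± 0.42 in HFD+AE (adjusted p = 0.0415) and -1.54 ± 0.42 in HFD (adjusted p = 0.0291; ± SE here and below). Hyou1, an Hsp110-type protein that exchanges nucleotide on Hspa5, had 98.0, 82.4 and 82.6 CPM in HFD+RE livers, 119.9, 101 and 141 CPM in HFD+AE livers, 123, 206 and 82.3 CPM in HFD livers, and 313, 809.9 and 373 CPM in NC livers. The 3 NC libraries were the highest of the 12, with NC 4 above the sum of the other 2. Its log2 changes were -2.51 ± 0.38 in HFD+RE (adjusted p = 0.00600), -2.05 ± 0.37 in HFD+AE (adjusted p = 0.0222) and -1.86 ± 0.37 in HFD (adjusted p = 0.0108), and without NC 4 the call in HFD remained (log2 change -1.33). Hspa5 against NC without NC 4 had a log2 change of -1.06 in HFD, which did not pass (adjusted p = 0.127).

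Among the co-chaperones, Dnajb11, which presents unfolded chains to Hspa5, had 57.1, 57.4 and 47.2 CPM in HFD+RE livers, 62.6, 54.8 and 72.9 CPM in HFD+AE livers, 59.1, 85.7 and 41.5 CPM in HFD livers, and 122, 198 and 132 CPM in NC livers. Every high-fat library was below every NC library. It fell in all 3 high-fat groups, with log2 changes of -1.48 ± 0.26 in HFD+RE (adjusted p = 0.0122), -1.25 ± 0.26 in HFD+AE (adjusted p = 0.0373) and -1.28 ± 0.26 in HFD (adjusted p = 0.0118). Dnajc3, another co-chaperone of Hspa5 that is also known as an inhibitor of PERK, averaged 205 ± 21.4 CPM in HFD+RE, 226 ± 57.4 CPM in HFD+AE, 224 ± 63.9 CPM in HFD and 426 ± 129 CPM in NC livers (SD, n = 3 each). It fell in HFD+RE (log2 change -1.06 ± 0.27, adjusted p = 0.0464) and in HFD (-0.93 ± 0.27, adjusted p = 0.0371), and in HFD+AE the log2 change was -0.91 ± 0.27 with an adjusted p of 0.125. Dnajb9, which directs misfolded chains to degradation and represses Ern1, overlapped between all groups: it averaged 35 ± 18.4 CPM in HFD+RE, 51.1 ± 12.4 in HFD+AE, 44.3 ± 27.1 in HFD and 72.1 ± 22.1 in NC livers.

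Hsp90b1 (GRP94), the ER member of the Hsp90 family, had 394, 306 and 304 CPM in HFD+RE livers, 429, 385 and 246 CPM in HFD+AE livers, 465, 633 and 385 CPM in HFD livers, and 740.3, 1400.1 and 704 CPM in NC livers. The NC libraries were above all others, and HFD 1 and HFD 2 lay between them and the exercise libraries. It fell in HFD+RE (log2 change -1.50 ± 0.31, adjusted p = 0.0209) and HFD+AE (-1.42 ± 0.31, adjusted p = 0.0412), and missed the threshold in HFD (-0.94 ± 0.30, adjusted p = 0.0520). Its exons share 415 bases (10.3%) with 1810014B01Rik on the other strand, whose 2163 counts over all libraries compare with 354209 for Hsp90b1.

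Sdf2l1, Creld2 and Manf, small ER proteins known as targets of the stress response, had the lowest means in the exercise groups, HFD next and NC highest. Creld2 had 12.1, 18.3 and 17.0 CPM in HFD+RE livers, 20.6, 14.4 and 22.4 CPM in HFD+AE livers, 44.9, 78 and 29.8 CPM in HFD livers, and 49.4, 218 and 95.7 CPM in NC livers. No exercise library reached the lowest HFD library, and NC 2 overlapped with the HFD libraries. The log2 changes against NC were -2.94 ± 0.48 in HFD+RE (adjusted p = 0.00896), -2.66 ± 0.48 in HFD+AE (adjusted p = 0.0199) and -1.25 ± 0.45 in HFD, which did not pass (adjusted p = 0.0738). Manf, a secreted factor that also binds Hspa5, had 27.4, 40.6 and 38.7 CPM in HFD+RE livers, 38.0, 29.5 and 43.3 CPM in HFD+AE livers, 86.4, 113 and 49.3 CPM in HFD livers, and 82.1, 192 and 120.1 CPM in NC livers. Again no exercise library reached the lowest HFD library. It fell in HFD+RE (log2 change -1.89 ± 0.34, adjusted p = 0.0127) and HFD+AE (-1.83 ± 0.34, adjusted p = 0.0232), while in HFD the change was -0.67 ± 0.33 (adjusted p = 0.169). Sdf2l1, a partner of the co-chaperones, had 6.05, 17.4 and 15.4 CPM in HFD+RE livers, 11.3, 7.90 and 15.6 CPM in HFD+AE livers, 26.2, 43.7 and 10.7 CPM in HFD livers, and 47.5, 107 and 43.1 CPM in NC livers. HFD 3 lay among the exercise libraries and HFD 2 among the NC libraries. Sdf2l1 fell in HFD+RE (-2.35 ± 0.53, adjusted p = 0.0303) and HFD+AE (-2.51 ± 0.53, adjusted p = 0.0376), and its change in HFD was -1.29 ± 0.51 (adjusted p = 0.0940). Manf shares 146 exon bases (4.14%) with Dcaf1 on the other strand, and the files do not say whether counting used the strand.

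**Figure D3:**
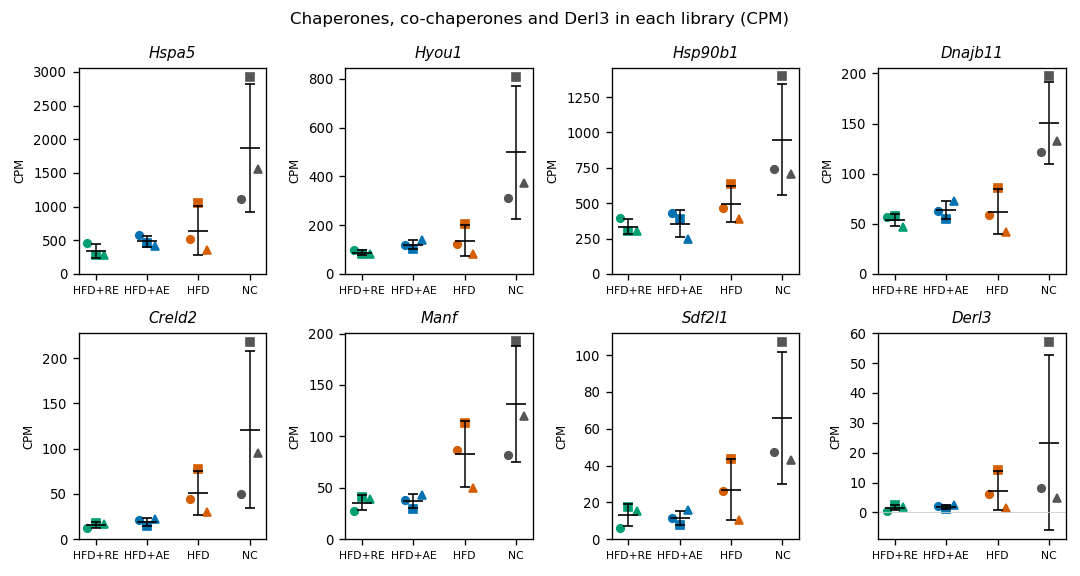
Level in CPM of 7 lumenal chaperones and co-chaperones and of Derl3 in each library of HFD+RE, HFD+AE, HFD and NC livers, with the mean and SD (n = 3) as bars and the symbols circle, square and triangle for the lowest, middle and highest library number of a group. NC 4 (square) is the highest NC library in all 8 panels, and for Creld2 and Manf all 6 exercise libraries lie below the 3 HFD libraries.

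The calnexin and calreticulin cycle folds glycoproteins: Calr and Canx bind their trimmed sugars, Pdia3 forms disulfide bonds in the bound chains, and Uggt1 re-marks chains that are still unfolded. Uggt1 had 72.1, 61.2 and 48.8 CPM in HFD+RE livers, 82.2, 76.7 and 82.1 CPM in HFD+AE livers, 50.4, 70.7 and 41.0 CPM in HFD livers, and 128, 181 and 102 CPM in NC livers. HFD had the lowest mean, though HFD 2 was above 2 of the HFD+RE libraries, and the HFD+AE libraries were all above those of HFD and all below those of NC. It fell in HFD+RE (log2 change -1.17 ± 0.25, adjusted p = 0.0233) and HFD (-1.34 ± 0.25, adjusted p = 0.00816), and in HFD+AE the change was -0.77 ± 0.25 (adjusted p = 0.159). Pdia3 had 298, 314 and 266 CPM in HFD+RE livers, 364, 309 and 332 CPM in HFD+AE livers, 339.8, 463 and 231 CPM in HFD livers, and 604, 879 and 493 CPM in NC livers. Every high-fat library was below the 3 NC libraries. Pdia3 fell in HFD+RE (-1.17 ± 0.27, adjusted p = 0.0305) and HFD (-0.93 ± 0.26, adjusted p = 0.0343), and not past the threshold in HFD+AE (-0.97 ± 0.26, adjusted p = 0.0980). Canx fell in HFD (log2 change -0.99 ± 0.26, adjusted p = 0.0280), at 305 ± 117 CPM in HFD against 607 ± 104 CPM in NC livers. Calr averaged 558 ± 109 CPM in HFD+RE, 645 ± 177 CPM in HFD+AE, 659 ± 183 CPM in HFD and 1109 ± 364 CPM in NC livers and passed in none of the 6 comparisons.

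Of the disulfide isomerases, Pdia4 and Pdia6 fell in HFD+RE and HFD livers, and P4hb passed in none of the 6 comparisons. Pdia4 had 162, 181 and 129 CPM in HFD+RE livers, 195, 179.9 and 215 CPM in HFD+AE livers, 176, 321 and 104 CPM in HFD livers, and 333, 713 and 321 CPM in NC livers. NC 4 was above the sum of the other NC libraries, and HFD 2 reached the lowest of them. Pdia4 fell in HFD+RE (log2 change -1.53 ± 0.38, adjusted p = 0.0427) and stood at the edge of the threshold in HFD (-1.19 ± 0.38, adjusted p = 0.0499), where it passed in 6 of 15 alternatives. Pdia6 had 124, 161 and 143 CPM in HFD+RE livers, 175, 150.3 and 169 CPM in HFD+AE livers, 177, 249 and 90.2 CPM in HFD livers, and 354, 477 and 277 CPM in NC livers. The NC libraries were above all high-fat libraries, with HFD 2 the nearest. It fell in HFD+RE (-1.37 ± 0.31, adjusted p = 0.0305) and HFD (-1.10 ± 0.31, adjusted p = 0.0329), and in HFD+AE the change was -1.16 ± 0.31 (adjusted p = 0.0912). P4hb, the most abundant isomerase listed and a subunit of collagen prolyl hydroxylase and of the triglyceride transfer protein, averaged 1269 ± 261 CPM in HFD+RE, 1507 ± 385 CPM in HFD+AE, 1225 ± 317 CPM in HFD and 1495 ± 297 CPM in NC livers, with overlap between all groups.

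ER-associated degradation returns misfolded proteins to the cytosol: Edem1 selects trimmed glycoproteins, Sel1l and the ubiquitin ligase Syvn1 (HRD1) form the membrane complex with Herpud1, and Derl3 is a Derlin of secretory cells. Edem1 fell in HFD (log2 change -0.76 ± 0.24, adjusted p = 0.0469), at 149 ± 46.9 CPM against 253 ± 48.5 CPM in NC livers, and passed in 7 of 15 alternatives. Derl3 had 0.605, 2.47 and 1.70 CPM in HFD+RE livers, 2.24, 1.10 and 2.31 CPM in HFD+AE livers, 6.13, 14.2 and 1.37 CPM in HFD livers, and 8.18, 57.0 and 4.90 CPM in NC livers. NC 4 held most of the NC level, and HFD 2 was above the other 2 NC libraries. The log2 changes against NC were -3.87 ± 0.97 in HFD+RE (adjusted p = 0.0430), -3.63 ± 0.95 in HFD+AE (adjusted p = 0.0891) and -1.69 ± 0.87 in HFD (adjusted p = 0.185), and without NC 4 the change in HFD was 0.14, with HFD+RE no longer past the threshold (-2.03, adjusted p = 0.208). Syvn1 averaged 67.8 ± 6.79 CPM in HFD+RE, 69.6 ± 11.7 in HFD+AE, 136 ± 58.6 in HFD and 188 ± 128 in NC livers, and every exercise library was below every HFD and NC library. Herpud1, whose protein is among the most stress-inducible of the complex, averaged 486 ± 78.5 CPM in HFD+RE, 659 ± 112 in HFD+AE, 497 ± 192 in HFD and 553 ± 17.2 in NC livers. Neither Syvn1, Herpud1 nor Sel1l passed in any of the 6 comparisons.

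Of the genes that sense ER stress or carry its signal, Ern1, Atf6 and Xbp1 fell in HFD livers. Ern1 had 68.5, 46.9 and 46.5 CPM in HFD+RE livers, 85.2, 70.0 and 62.7 CPM in HFD+AE livers, 44.6, 59.0 and 39.9 CPM in HFD livers, and 131, 117 and 92.7 CPM in NC livers. The NC libraries were the highest 3, and the HFD+AE libraries were above those of HFD. Ern1 fell in HFD (log2 change -1.25 ± 0.22, adjusted p = 0.00720), in 15 of 15 alternatives, and in HFD+RE (-1.07 ± 0.22, adjusted p = 0.0218), while in HFD+AE it did not pass (-0.64 ± 0.22, adjusted p = 0.195). Atf6 had 99.6, 66.9 and 60.0 CPM in HFD+RE livers, 112, 107 and 87.8 CPM in HFD+AE livers, 61.1, 76.9 and 49.7 CPM in HFD livers, and 113, 147 and 120.2 CPM in NC livers. All HFD libraries were below all HFD+AE and NC libraries, and HFD+AE 1 came close to the lowest NC library. Atf6 fell in HFD (-1.02 ± 0.23, adjusted p = 0.0161), and its changes were -0.75 ± 0.23 in HFD+RE (adjusted p = 0.0776) and -0.31 ± 0.23 in HFD+AE (adjusted p = 0.602). Eif2ak3 had 14.4, 9.99 and 8.77 CPM in HFD+RE livers, 13.4, 14.9 and 12.3 CPM in HFD+AE livers, 14.6, 18.4 and 7.98 CPM in HFD livers, and 14.3, 19.4 and 16.9 CPM in NC livers. The groups overlapped, and it passed in none of the 6 comparisons (log2 change -0.61 ± 0.28 in HFD+RE, -0.31 ± 0.28 in HFD+AE and -0.30 ± 0.28 in HFD against NC). Xbp1 had 183, 177 and 177 CPM in HFD+RE livers, 139, 139 and 201 CPM in HFD+AE livers, 153, 184 and 119.5 CPM in HFD livers, and 248, 239 and 255 CPM in NC livers. The NC libraries were close to each other and above all 9 high-fat libraries. Xbp1 fell in HFD (-0.70 ± 0.20, adjusted p = 0.0371), and its changes against NC were -0.46 ± 0.20 in HFD+RE (adjusted p = 0.181) and -0.63 ± 0.20 in HFD+AE (adjusted p = 0.16).

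In the PERK and ATF4 branch, Ddit3 rose and Asns fell in HFD livers against NC livers. Atf4 had 64.6, 105 and 121 CPM in HFD+RE livers, 75.8, 67.8 and 83.2 CPM in HFD+AE livers, 95.6, 87.4 and 112 CPM in HFD livers, and 61.2, 64.6 and 74.9 CPM in NC livers. The HFD libraries were above those of NC without overlap, but the change did not pass (0.56 ± 0.22, adjusted p = 0.0932). Ddit3, the pro-apoptotic factor CHOP, had 7.20, 7.85 and 8.40 CPM in HFD+RE livers, 8.65, 5.79 and 6.47 CPM in HFD+AE livers, 17.8, 19.8 and 16.3 CPM in HFD livers, and 5.15, 9.33 and 13.1 CPM in NC livers. The 3 HFD libraries were the highest of the 12, and the other 3 groups overlapped. It rose in HFD against NC (log2 change 0.97 ± 0.28, adjusted p = 0.0354); with the trends on gene length and GC content removed from each library, the change was 0.68 (adjusted p = 0.102), and it passed in 7 of 15 alternatives. Ddit3 shares 68 exon bases (3.97%) with Mars1 on the other strand, whose 33608 counts over all libraries compare with 7163 for Ddit3. The part of Mars1 reads in the level of Ddit3 was not tested. Trib3, a pseudokinase induced by Atf4 and Ddit3, had 4.14, 8.96 and 6.49 CPM in HFD+RE livers, 2.51, 3.01 and 7.76 CPM in HFD+AE livers, 6.54, 4.07 and 4.52 CPM in HFD livers, and 6.69, 5.31 and 2.23 CPM in NC livers. All 4 groups overlapped, and its log2 change in HFD against NC was 0.09 ± 0.46. Asns, asparagine synthetase, had 3.14, 0.145 and 0.899 CPM in HFD+RE livers, 0.530, 0.248 and 0.391 CPM in HFD+AE livers, 0.253, 0.178 and 0.200 CPM in HFD livers, and 5.07, 2.78 and 0.973 CPM in NC livers. It was low in this liver, and HFD+AE and HFD libraries were all below the NC libraries, while HFD+RE libraries spread from the lowest of the 12 to above 2 of the NC libraries. Asns fell in HFD (-3.79 ± 0.88, adjusted p = 0.0180), and its change was -1.08 ± 0.76 in HFD+RE (adjusted p = 0.386) and -2.90 ± 0.83 in HFD+AE (adjusted p = 0.114). Chac1, Ppp1r15a and Sesn2, an enzyme of glutathione breakdown, a subunit that reverses the PERK signal and a stress-inducible sestrin, passed in none of the 6 comparisons, with changes of 0.34 ± 0.42, -0.39 ± 0.17 and 0.55 ± 0.31 in HFD against NC.

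**Figure D4:**
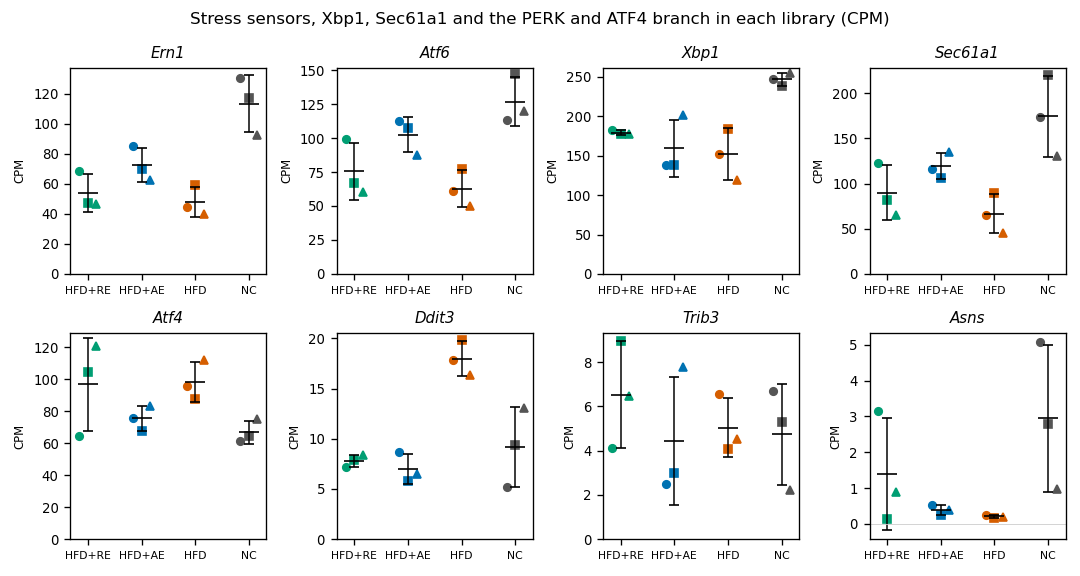
Level in CPM of Ern1, Atf6, Xbp1, Sec61a1, Atf4, Ddit3, Trib3 and Asns in each library of HFD+RE, HFD+AE, HFD and NC livers, with the mean and SD (n = 3) as bars and the symbols circle, square and triangle for the lowest, middle and highest library number of a group. The 3 HFD libraries are the highest for Ddit3, at 16.3 to 19.8 CPM, and below all HFD+AE and NC libraries for Atf6 and Sec61a1.

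Of the translocon genes, Sec61a1, which forms the channel for nascent chains, had 123, 81.8 and 64.7 CPM in HFD+RE livers, 116, 107 and 135 CPM in HFD+AE livers, 64.8, 89.7 and 45.8 CPM in HFD livers, and 174, 219 and 130.0 CPM in NC livers. All HFD libraries were below all HFD+AE and NC libraries. Sec61a1 fell in HFD (log2 change -1.39 ± 0.29, adjusted p = 0.0126), and its changes were -0.96 ± 0.29 in HFD+RE (adjusted p = 0.0763) and -0.55 ± 0.29 in HFD+AE (adjusted p = 0.424). Sec61b, a small subunit of the same channel, averaged 45.1 ± 16.5 CPM in HFD+RE, 31.4 ± 7.97 in HFD+AE, 45.6 ± 5.97 in HFD and 37.2 ± 5.61 in NC livers. Ssr1, of the translocon-associated complex, averaged 102 ± 3.66 CPM in HFD+RE, 96.4 ± 0.55 in HFD+AE, 99.7 ± 9.57 in HFD and 132 ± 22.5 in NC livers. Sec61b and Ssr1 passed in none of the 6 comparisons.

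Exercise on the high-fat diet was then set against the high-fat diet alone. In HFD+AE against HFD livers, 0 of the 35 genes passed by edgeR, 9 had an unadjusted p below 0.05, and 4 passed by DESeq2. Of all genes, 0.0492% were called by edgeR, 26.4% had an unadjusted p below 0.05, and 12.1% were called by DESeq2, so these shares of members are near the background. The median log2 change of the list was -0.03, against 0.00 over all genes. HFD+AE and HFD libraries did not overlap in 5 members higher in HFD+AE and 6 lower, where 15.8% and 16.3% of all genes had such groups. The members nearest to the threshold lay on both sides of 0. Ddit3 at 6.97 ± 1.49 CPM in HFD+AE against 18.0 ± 1.75 CPM in HFD had a log2 change of -1.37 ± 0.28 (adjusted p = 0.0574), and Manf and Creld2 had changes of -1.17 ± 0.33 (adjusted p = 0.0727) and -1.41 ± 0.46 (adjusted p = 0.0903). On the other side, Atf6 at 102 ± 12.9 CPM in HFD+AE against 62.6 ± 13.6 CPM in HFD had a change of 0.71 ± 0.23 (adjusted p = 0.0890), Sec61a1 one of 0.83 ± 0.29 (adjusted p = 0.103) and Ern1 one of 0.60 ± 0.22 (adjusted p = 0.117). Hspa5 and Hyou1 had changes of -0.40 ± 0.41 and -0.18 ± 0.36, and without HFD 2 the sign turned to 0.15 and 0.24. By DESeq2, Ddit3 (adjusted p = 0.000668), Manf (0.0158), Creld2 (0.0255) and Atf6 (0.0399) passed. Without HFD 2, 4 members passed by edgeR (Atf6, Canx and Sec61a1 higher, Ddit3 lower), with 8.93% of all genes called in that fit. Without HFD+AE 3 and HFD+RE 3 together 5 passed (Atf6 and Ern1 higher, Ddit3, Manf and Sec61b lower), with 22.5% of all genes. Those libraries stood apart in these same data, so that fit is no independent support.

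Exon length was set beside these changes in HFD+AE against HFD livers, and its part in them was not tested. The 8 members with a log2 change above 0.4 had a median exon length of 6592.5 bases (range 2333 to 12853). The 9 below -0.4 had 1993 bases (range 1108 to 4859), so the lengths of these sets overlapped. The medians were 3248 bases for the 35 members and 3548 bases for all genes. With the trends on length and GC content removed, the changes in HFD+AE against HFD were 0.47 for Atf6, 0.65 for Sec61a1, 0.37 for Ern1, -1.16 for Creld2, -1.20 for Manf and -1.13 for Ddit3. In that fit 0 members passed, with 2.78% of all genes called.

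In HFD+RE against HFD livers, 0 of the 35 genes passed by edgeR, 7 had an unadjusted p below 0.05, and 4 passed by DESeq2. Of all genes, 0.0109% were called by edgeR, 8.77% had an unadjusted p below 0.05, and 1.2% were called by DESeq2. The median log2 change of the list was -0.20, against 0.04 over all genes. HFD+RE and HFD libraries did not overlap in 4 members, all lower in HFD+RE (6.99% of all genes, with 7.15% higher): Ddit3, Manf, Creld2 and Syvn1. Ddit3 averaged 7.82 ± 0.60 CPM in HFD+RE and 18.0 ± 1.75 CPM in HFD livers, a log2 change of -1.20 ± 0.28 (adjusted p = 0.279; 0.0127 by DESeq2). The changes of Creld2, Manf and Syvn1 were -1.69 ± 0.46, -1.22 ± 0.33 and -1.0 ± 0.40 (adjusted p = 0.304, 0.304 and 0.488). Derl3, whose libraries overlapped, had a change of -2.18 in HFD+RE (adjusted p = 0.513) and -1.94 in HFD+AE (adjusted p = 0.192) against HFD. All 9 lumenal chaperones had changes below 0, at a median of -0.64, with Hspa5 at -0.92 ± 0.41 (adjusted p = 0.544). This rested in part on HFD 2, the highest HFD library in all 9: without it, 6 were below 0 and Dnajb9, Dnajb11 and Dnajc3 above, the median was -0.34 and Hspa5 was at -0.36. Asns had a change of 2.71 ± 0.86 (adjusted p = 0.350), which rested on HFD+RE 3; without that library it was 1.31. HFD+AE and HFD+RE share the HFD libraries in these comparisons, so the like values of Ddit3, Creld2 and Manf in both are not independent of each other.

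**Figure D5:**
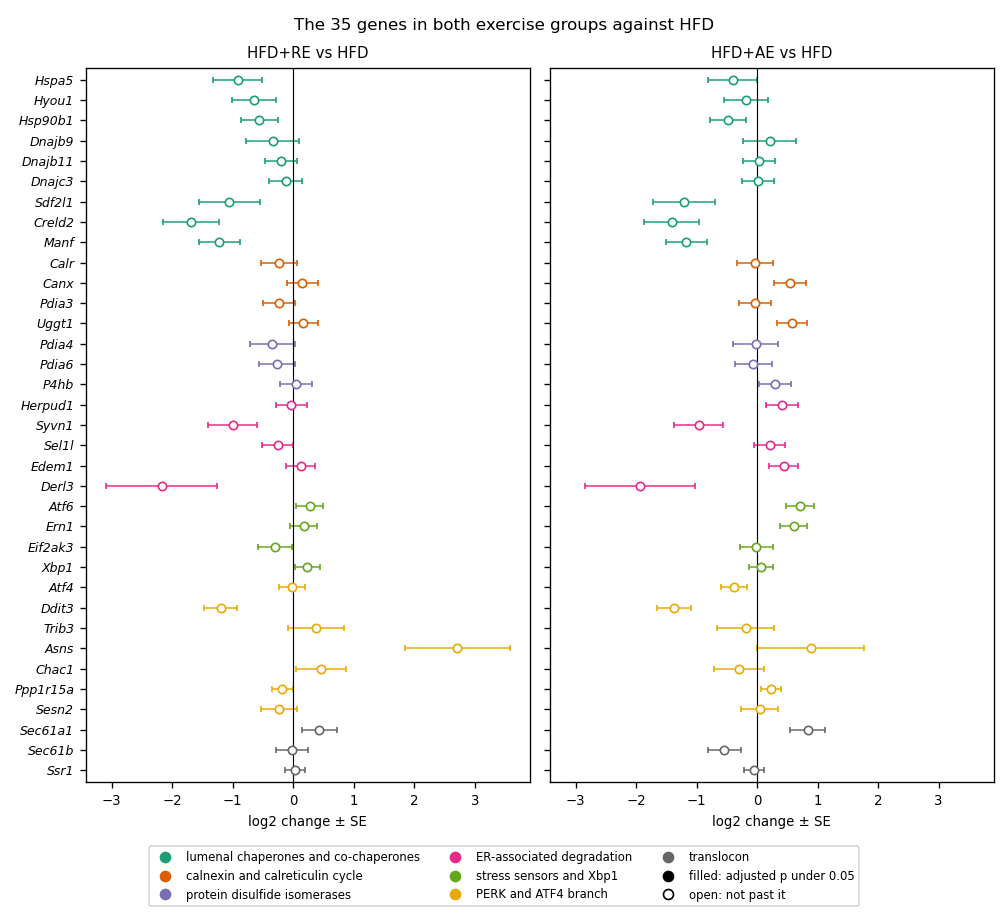
Log2 change with its standard error for each of the 35 genes in HFD+RE (left) and HFD+AE livers (right) against HFD livers, 3 libraries a group, with colours for roles; all points are open because 0 genes had an adjusted p below 0.05. Derl3, Ddit3, Manf and Creld2 lie at or below -1.17 in both panels, and Atf6, Ern1 and Sec61a1 lie between 0.60 and 0.83 in HFD+AE.

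Between the exercise groups, 0 of the 35 genes passed in HFD+RE against HFD+AE livers by edgeR or by DESeq2, and 2 had an unadjusted p below 0.05 (Asns and Ppp1r15a). Of all genes, 0.0% were called by edgeR, 8.02% had an unadjusted p below 0.05, and 0.154% were called by DESeq2. The median log2 change of the list was -0.24, against 0.01 over all genes, and 26 of the 35 were below 0. The libraries did not overlap in 1 member higher in HFD+RE, Ssr1, and 4 lower, Hyou1, Uggt1, Sel1l and Ppp1r15a (5.88% and 5.4% of all genes). The log2 difference with its SE was -0.52 ± 0.41 for Hspa5, 0.17 ± 0.28 for Ddit3 and -0.28 ± 0.45 for Creld2, and a p that misses the threshold does not show that the groups were alike. Without HFD+AE 3 and HFD+RE 3 together, 5 members passed: Atf4, Trib3 and Sec61b higher, and Atf6 and Ern1 lower in HFD+RE, with 22.1% of all genes called in that fit. The libraries left out are those that stood apart in these same data, so this fit gives no independent support for a difference. HFD+RE 3 was more like HFD+AE 1 and 2 than like HFD+RE 4 and 5, so the comparison holds only for the groups as labelled.

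Other genes of the same pathways were counted from lists that do not include the 35. In HFD against NC livers, 1 of 30 other ER folding factors rose and 9 fell, 1 of 32 other translocation and N-glycosylation genes rose and 9 fell, and 0 of 23 other degradation genes rose and 6 fell. Of 20 genes of COPII vesicles and KDEL receptors 0 rose and 2 fell, of 16 other stress regulators 0 rose and 1 fell, and of 32 other ATF4 and amino acid response genes 4 rose and 3 fell. Of all genes, 8.38% rose and 7.19% fell in this comparison, so the counts for vesicles, regulators and ATF4 genes are near the background. The folding factors that fell with the smallest p were Ero1lb, an oxidase that recharges the isomerases (log2 change -1.51 ± 0.32), Erp44 (-0.68 ± 0.18), which retains oxidases, and Tmx4 (-0.88 ± 0.24), a membrane thioredoxin. Those of translocation and glycosylation were Ostc (-0.93 ± 0.21) and Stt3a (-1.34 ± 0.32) of the oligosaccharyltransferase, and Srp54a (-1.66 ± 0.39) of the signal recognition particle. In degradation they were Nploc4 (-0.92 ± 0.20), Selenos (-1.03 ± 0.23) and Herpud2 (-0.76 ± 0.21). The COPII coat genes were Sec24d (-1.37 ± 0.34) and Sec23b (-0.90 ± 0.24), and the regulator was Eif2s1 (-0.85 ± 0.25), which encodes the protein that PERK phosphorylates. Among the ATF4 and amino acid response genes, Vldlr (2.16 ± 0.36) and Fgf21 (2.23 ± 0.49) rose and the transfer RNA synthetase gene Iars (-1.38 ± 0.30) fell. Against NC, HFD+RE livers had lower Ero1lb (-1.81 ± 0.32), Nucb2 (-2.02 ± 0.46) and Spcs2 (-0.72 ± 0.18), and HFD+AE livers lower Nucb2 (-2.04 ± 0.46), Spcs2 (-0.82 ± 0.18), Tmed9 (-0.91 ± 0.20) and Mthfd2 (-1.97 ± 0.37) and higher Vldlr (2.26 ± 0.36). None of these lists had a called gene in HFD+RE or HFD+AE against HFD livers by edgeR.

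The promoter letters shown above were set beside the calls. In HFD against NC, 5 of the 11 members with ERSE or ERSE-II letters fell and 0 rose, at a median log2 change of -0.99 and a range from -1.69 to -0.16. Of the 20 members with a window and neither pattern, 7 fell and 1 rose, at a median of -0.55, and of the 4 without a window 3 fell. The 20 include the 7 genes of the PERK and ATF4 branch, with 1 that fell and the 1 that rose. The 11 include none of this branch, so the sets also differ in role. Among the 19 other tested genes with either pattern, 0 were called and the median change was -0.04. In HFD+RE against NC, 7 of the 11 members with the letters and 5 of the 20 without fell, at medians of -1.47 and -0.58, and in HFD+AE against NC 4 of 11 and 1 of 20, at -1.25 and -0.43. The letters are a feature of chaperone promoters, and these counts do not say whether a factor was bound.

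Markers of other cells with a large ER, and of other liver cells, were measured beside the 35 genes. The summed level of 11 B and plasma cell markers ran from 55.2 to 103 CPM in HFD+RE, 38.4 to 39.9 CPM in HFD+AE, 44.4 to 170 CPM in HFD and 28.5 to 46.1 CPM in NC livers, and it was lowest of all 12 in NC 4, the library with the highest level of most chaperones. Of these 11 markers, 7 rose and 0 fell in HFD against NC, where 8.38% of all genes rose and 7.19% fell. The 10 pancreatic acinar markers summed to 13.4 to 31.0 CPM in HFD+RE, 20.8 to 24.5 CPM in HFD+AE, 9.67 to 12.3 CPM in HFD and 21.0 to 25.7 CPM in NC livers, so HFD was below NC without overlap. Nearly all of this sum was Cela1, which with Cela2a passed the filter on low counts; 8 did not pass it, and Cpa1, Cela3b, Pnlip and Amy2a5 were at 0 counts in all 12 libraries. Summed Kupffer cell and macrophage markers (12 genes) were 87.7 to 439 CPM in HFD+RE, 346 to 460.3 CPM in HFD+AE, 159 to 312 CPM in HFD and 313 to 517 CPM in NC, and 10 endothelial markers 109.8 to 314 CPM in HFD+RE, 238 to 429.9 CPM in HFD+AE, 123 to 214 CPM in HFD and 291 to 367 CPM in NC. Stellate cell and fibroblast markers (10 genes) summed to 222 to 329.8 CPM in HFD+RE, 267 to 271 CPM in HFD+AE, 276 to 390.3 CPM in HFD and 144 to 167 CPM in NC livers. T and NK cell markers (11 genes) summed to 6.75 to 9.60 CPM in HFD+RE, 3.49 to 8.05 CPM in HFD+AE, 5.65 to 48.1 CPM in HFD and 5.13 to 12.7 CPM in NC, and 6 erythroid markers to 148 to 384 CPM in HFD+RE, 126 to 328 CPM in HFD+AE, 273 to 495 CPM in HFD and 159.6 to 301 CPM in NC livers. The part of these cells in the levels of the 35 genes was not tested.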

How the data were processed

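Total RNA of mouse liver was sequenced in 12 libraries, 3 each of HFD+RE, HFD+AE, HFD and NC. The authors deposited raw counts per gene for 55291 genes, made with featureCounts 2.0.6, per the file headers; fastp, HISAT2 2.2.1, DESeq2 1.40.1 and mm10 are named in the submitters' processing notes. The setting for strand is not given in the sources used here, nor is the release of the annotation. Of counts from 1 to 10, 72.3% were even, so reads may enter more than once and intervals or floors cover counting error only.

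Genes were kept by filterByExpr (edgeR 4.0.16, R 4.3.3), which left 18305, scaled by TMM and tested with the edgeR quasi-likelihood test (robust, 1 mean per group, all 12 libraries), with Benjamini-Hochberg adjustment over all of them. The SE is the log2 change over the square root of F. Alternatives were DESeq2 1.42.0, RLE scaling, no filter, no robust dispersion, only the 2 groups compared, trends on length and GC content removed, 2 libraries left out together, the replicate block and each library left out in turn. Tests were tried on simulated counts. The 35 members and all lists were chosen with earlier results of these data known. Values in every library are given for the 16 members with the smallest p among those called, and always for Hspa5, Hyou1, Xbp1, Atf6, Ern1, Eif2ak3, Atf4, Ddit3, Trib3 and Asns; of the other pathway genes, up to 3 called ones of each list and comparison are named, by smallest p. Motif searches used RefSeq windows (GRCm38.p6) by symbol, without those on chr18.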

Additional observations from a re-analysis of the deposited data

How the results depend on the processing

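Counts of members called moved with the setting, and 0 of the changes called at adjusted p below 0.05 turned in sign, in the comparison in which they were called, under any alternative run. DESeq2 called 4 members in HFD+AE against HFD (12.1% of all genes), 4 in HFD+RE against HFD (1.2%), and 15 in HFD+AE against NC (4.84%). Without the filter on low counts, 2 passed in HFD+AE against HFD (3.04% of all genes) and 1 in HFD+RE against HFD (0.137%). With only the 2 groups compared, 2 passed in HFD+AE against HFD (3.75%), 1 in HFD+AE against NC (0.49%) and 5 in HFD+RE against NC (0.646%). Without HFD+AE 3 and HFD+RE 3 together, 5 passed in HFD+AE against HFD (22.5%), 5 in HFD+RE against HFD+AE (22.1%), 1 in HFD+AE against NC (1.66%) and 25 in HFD+RE against NC (31.7%). Both libraries stood apart from their groups in these same data, so the fits without them are not independent support for any change. Leaving out each library in turn gave 2 to 19 in HFD against NC, 0 to 4 in HFD+AE against HFD, 0 to 5 in HFD+AE against NC and 2 to 21 in HFD+RE against NC, and a median log2 change of the list in HFD against NC of -1.16 to -0.55. The cause was not tested; such fits have 1 library fewer and called fewer of all genes in HFD against NC without HFD 1, HFD 3 or any NC library. Same-numbered libraries correlated at -0.50 to 0.16 in their deviations from group means, so the numbers were not taken to pair them. With the replicate block, 2 members passed in HFD against NC (Asns and Ern1; 1.78% of all genes), 0 in HFD+AE against NC (0.00546%) and 0 in HFD+RE against NC (0.0819%). Over the called members and all alternatives, 352 values kept their side of the threshold and 203 missed it in the same direction. The calls rest on 3 libraries a group that differ in their length and GC trends, and depth limits Asns most among the members.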
